A study of Mus musculus with 4 samples.

Results

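The genes described here are 9 genes of cytotoxic lymphocytes and natural killer (NK) cells, taken by name as known genes of these cells, with earlier results of these libraries known. They are the granule genes Gzma, Gzmb and Prf1, the granule membrane gene Nkg7, the receptor genes Klrb1c, Klrd1, Ncr1 and Il2rb, and the transcription factor gene Eomes. Of the 9, 8 had a value among the 24706 genes of each library, and Eomes was not analysed here. They were examined as a gauge of RNA from NK cells and other innate lymphoid cells (ILC) in libraries of CD11b+ cells.

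RNA-seq was available for 4 mouse libraries labelled as myeloid cells, 2 labelled wt and 2 labelled cko. The cko animals are the PD-1f/f; LysM-Cre genotype of the study: floxed alleles of Pdcd1 (the gene of PD-1) combined with a Cre recombinase expressed from the Lyz2 locus, which is active in granulocytes, monocytes and macrophages. The control animals are called wild-type in the methods of the study and PD-1f/f in its figures. The results describe liver CD11b+ cells sorted at postnatal day 3, whereas the methods describe liver RNA at postnatal day 2 and name no sort. The labels do not say whether the 2 libraries of a group came from separate animals, so that p-values measure only the spread between these libraries.

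NK cells are lymphocytes of the innate immune system that kill infected or transformed cells without prior priming. They release granules in which perforin opens the target membrane and granzymes, a family of serine proteases, start cell death inside. Their activity is set by inhibitory and activating receptors at the surface, and their survival by interleukin-15 (IL-15) through the receptor chain they share with the IL-2 receptor. The liver is rich in NK cells and ILC1, and mature mouse NK cells carry CD11b (Itgam), so that a gate on CD11b alone does not remove them.

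The libraries held 17691505 to 22212407 counted reads, so that 1 read is worth 0.0450 to 0.0565 RPM, the read number scaled to library size. Levels are FPKM, RPM divided by gene length in kilobases, and limma compared the groups on log2(FPKM + 1) for the 10779 genes whose mean reached 1 FPKM. This scale understates the differences of weakly expressed genes. An exact two-sided permutation test of a single gene, 2 against 2 libraries, can reach no smaller p than 0.333. The targeted gene Pdcd1 had 28.5 and 34.7 FPKM in the wt and 17.1 and 21.4 FPKM in the cko libraries. Wt replicate 2 alone held Y-linked transcripts beyond 2 reads (Ddx3y at 24.9 FPKM, against at most 1 read in the other libraries). It had 4 reads of Xist where the others had 1956 to 2530. Fold changes without it are therefore given for the tested cytotoxic and NK genes and for the summed level. Of the myeloid markers, Itgam had 51.4, 54.3, 48.5 and 49.4 FPKM and S100a9 at least 26142 FPKM in each library. The study's methods threshold (adjusted p under 0.05 with |log2FC| not below 1) was passed by 0 of 10779 genes (0%) with limma, against 1768 with an unadjusted p under 0.05 and 2 genes when voom was run on recovered reads. The threshold of its results (|log2FC| above 1 and an unadjusted p under 0.01) was passed by 247 genes (2.29%), 203 higher and 44 lower (0.408%) in the cko libraries. With median-of-ratios rescaling of the libraries the split was 142 higher and 72 lower, and the median log2 fold change of all tested genes moved from 0.09 to -0.01.

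RNA of the cytotoxic and NK genes was present in every library, and 4 of the 8 genes lay lower in both cko libraries than in both wt libraries: Gzma, Klrd1, Ncr1 and Klrb1c. Gzma, which encodes granzyme A, had the highest mean level, with a mean FPKM 2.69 times as high in the wt libraries. The ratio was 3.13 for Klrd1, 2.68 for Ncr1 and 3.81 for Klrb1c, which rest on fewer reads. The other 4 genes, Gzmb, Prf1, Nkg7 and Il2rb, overlapped between the groups. Among all 24706 genes, 12.6% lay lower in both cko libraries than in both wt libraries and 24.5% lay higher in both. The filter on low values left 5 of the 8 genes for the fit (Gzma, Gzmb, Nkg7, Klrd1 and Ncr1), and 3 of these lay lower in both cko libraries, beside 18% of all tested genes, whereas 0 lay higher in both, beside 33.6%. At the threshold of the results 1 of the 5, Gzma, passed, and 0 passed the threshold of the methods. The median log2 fold change of the 5 tested genes was -0.75, which is the value of Ncr1, and that of all tested genes 0.09. It was -0.24 without cko replicate 1, and -0.37 over all 8 genes when the filter was dropped or set at a mean of 0.1 FPKM. These are bulk libraries, in which fewer cells of a type and less RNA per cell cannot be told apart.

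**Figure D1:**
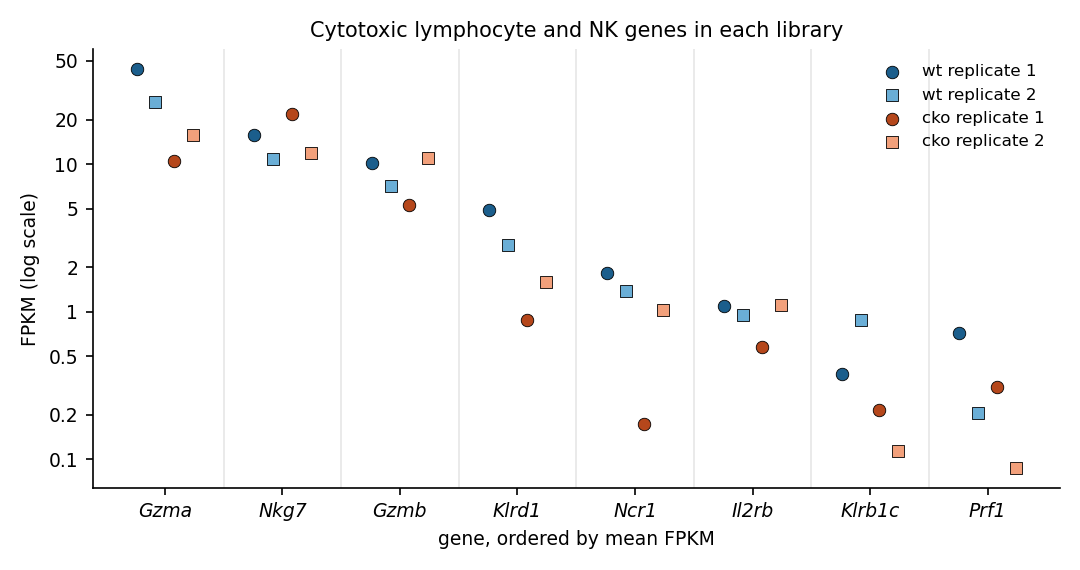
FPKM of the 8 genes with a value (log scale), 1 point per library, with genes ordered from left to right by mean FPKM over the 4 libraries. Gzma, Klrd1, Ncr1 and Klrb1c have both cko points (red and orange) below both wt points (blue), as for Gzma at 10.5 and 15.7 against 44.0 and 26.5 FPKM, whereas the other 4 genes overlap.

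The order of the levels by mean FPKM over the 4 libraries was Gzma (24.2), Nkg7 (15.0), Gzmb (8.40), Klrd1 (2.54), Ncr1 (1.11), Il2rb (0.936), Klrb1c (0.398) and Prf1 (0.329). The ranges over the libraries overlapped between all neighbours in this order except Gzmb and Klrd1, where the lowest Gzmb value, 5.31 FPKM, lay above the highest Klrd1 value, 4.89 FPKM. The 3 genes of granule content or membrane at the top were thus set apart from the receptor genes, and the granule gene Prf1 lay at the bottom. By the cko means both ends of the order differed, with the mean of Nkg7 (16.8 FPKM) above that of Gzma (13.1 FPKM) and the mean of Prf1 (0.199 FPKM) above that of Klrb1c (0.165 FPKM). This came from cko replicate 1. In cko replicate 2, Gzma (15.7 FPKM) lay above Nkg7 (11.8 FPKM) and Klrb1c (0.115 FPKM) above Prf1 (0.0875 FPKM). In wt replicate 1, Prf1 (0.714 FPKM) also lay above Klrb1c (0.380 FPKM). In all, the 8 genes took 1962 and 1094 reads in the wt and 798 and 879 reads in the cko libraries. These were 0.00883% and 0.00581% of counted reads in the wt and 0.00426% and 0.00497% in the cko libraries. By summed FPKM the 8 genes made up 0.0160% and 0.0111% of all FPKM in the wt and 0.00964% and 0.0105% in the cko libraries.

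The sequences before the start sites of 3 of the genes are shown because they share short letters that RUNX factors, regulators of cytotoxic lymphocyte genes, are known to recognise, while the genes differ in these libraries: Gzma and Ncr1 did not overlap between the groups and Gzmb did. Each is the 250 bases before the RefSeq start site (GRCm38.p6), on the strand of the gene, with capitals for TGTGGT or its reverse complement. Gzma lies at chr13:113100982-113101231 on the minus strand, Ncr1 at chr7:4337465-4337714 on the plus strand and Gzmb at chr14:56262335-56262584 on the minus strand.
Gzma: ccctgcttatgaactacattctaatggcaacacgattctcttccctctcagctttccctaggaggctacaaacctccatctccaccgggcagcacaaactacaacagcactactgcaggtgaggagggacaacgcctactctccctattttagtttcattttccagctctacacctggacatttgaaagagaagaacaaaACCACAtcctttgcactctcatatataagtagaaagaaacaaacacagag
Ncr1: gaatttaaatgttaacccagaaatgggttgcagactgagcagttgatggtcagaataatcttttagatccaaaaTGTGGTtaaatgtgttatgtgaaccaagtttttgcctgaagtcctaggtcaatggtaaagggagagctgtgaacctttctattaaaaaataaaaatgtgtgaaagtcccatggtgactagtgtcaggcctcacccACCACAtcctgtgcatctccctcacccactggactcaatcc
Gzmb: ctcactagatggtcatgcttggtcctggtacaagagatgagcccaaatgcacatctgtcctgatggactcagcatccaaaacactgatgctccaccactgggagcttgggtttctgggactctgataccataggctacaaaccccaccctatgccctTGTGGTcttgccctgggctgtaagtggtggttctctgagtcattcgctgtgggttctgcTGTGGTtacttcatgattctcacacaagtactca

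Promoters of 6 of the genes were in the table of 32851 RefSeq promoters used (Gzma, Gzmb, Prf1, Nkg7, Klrb1c and Ncr1), and 10 motifs were searched in the 250 bases before each start on both strands. TGTGGT was in all 6, beside 14% of all promoters, and the longer TGTGGTT, which contains it, was in 3 (Gzma, Gzmb and Ncr1) beside 4.4%. The match lay 50 bases before the start of Gzma, and the matches nearest the start lay 41 bases before that of Ncr1 and 34 before that of Gzmb. GTGTGA, the core that T-box factors such as Eomes and T-bet bind, was in 3 (Gzmb, Ncr1 and Nkg7) beside 12.3%, and its extensions GGTGTGA (3.33%) and AGGTGTGA (1.12%) were in Nkg7. Of the ETS motifs, GGAAGT was in Klrb1c and Prf1 beside 19.7%, and TTTCCTGT in 0 of the 6 beside 2.49%. Of the STAT motifs, TTCNNNGAA was in Nkg7 beside 7.02%, as was its narrower form TTCNNGGAA (4.06%), and TATAAA was in 0 of the 6 beside 12.4%. These matches describe letters in the windows and not bound sites.

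Gzma encodes granzyme A, a protease with trypsin-like specificity that NK cells hold even at rest. It had 44.0 and 26.5 FPKM in the wt libraries (983 and 501 reads) and 10.5 and 15.7 FPKM in the cko libraries (198 and 279 reads). Both cko libraries lay below both wt libraries, and wt replicate 1 lay above all others. The log2 fold change was -1.34 (standard error 0.30, 95% interval -2.10 to -0.59, adjusted p = 0.210 by limma), past the threshold of the results. Without wt replicate 1 it was -0.99 and without cko replicate 1 it was -1.08, in both cases no longer past that threshold, and without wt replicate 2 it was -1.70. Gzma (ENSMUSG00000023132) lies on chromosome 13 from 113093825 to 113100981 on the minus strand, with 5 exons (GRCm38).

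Gzmb encodes granzyme B, the granzyme that cleaves caspases in the target cell and that activated NK cells and cytotoxic T cells make in large amounts. Its levels were 10.2 and 7.07 FPKM in the wt and 5.31 and 11.0 FPKM in the cko libraries (325, 191, 143 and 280 reads). The groups overlapped, with the highest and the lowest value both in cko libraries. The log2 fold change was -0.13 (standard error 0.35, 95% interval -0.99 to 0.74, adjusted p = 0.884 by limma), and its sign turned without wt replicate 1 (0.11) and without cko replicate 1 (0.34). Without wt replicate 2 it was -0.36. The ratio of Gzmb to Gzma was 0.232 and 0.267 in the wt and 0.506 and 0.703 in the cko libraries, so that granzyme B made up more of the granzyme RNA in both cko libraries. Gzmb (ENSMUSG00000015437) lies on chromosome 14 from 56258838 to 56262260 on the minus strand, 174 kb from Mcpt8, a protease gene of basophils in the same cluster.

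Prf1 encodes perforin, the pore-forming protein through which granzymes reach the target cell. Its 0.714 and 0.206 FPKM in the wt and 0.310 and 0.0875 FPKM in the cko libraries rested on 41, 10, 15 and 4 reads, and the groups overlapped. At this depth the 95% interval (Clopper-Pearson, counting error only) was 1.32 to 2.50 RPM in wt replicate 1 and 0.0616 to 0.579 RPM in cko replicate 2. Prf1 was under the filter and was not tested. The mean of Prf1 was 0.460 FPKM in the wt and 0.199 FPKM in the cko libraries, where that of Gzmb was 8.63 and 8.17 FPKM.

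Nkg7 encodes a membrane protein of cytotoxic granules that takes part in their release. It had 15.7 and 10.8 FPKM in the wt and 21.8 and 11.8 FPKM in the cko libraries (318, 185, 374 and 191 reads). The groups overlapped, and cko replicate 1, the lowest library for Gzma and Gzmb, was the highest for Nkg7. The log2 fold change was 0.29 (standard error 0.33, 95% interval -0.52 to 1.10, adjusted p = 0.679 by limma), and -0.13 without cko replicate 1. Without wt replicate 2 it was 0.038. The ratio of Nkg7 to Gzma was 0.356 and 0.406 in the wt and 2.08 and 0.754 in the cko libraries.

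Of the receptor genes, Klrd1 encodes CD94, which pairs with NKG2 proteins to recognise the MHC class I molecule Qa-1. It had 4.89 and 2.82 FPKM in the wt libraries (139 and 68 reads) and 0.875 and 1.59 FPKM in the cko libraries (21 and 36 reads). Both cko libraries lay below both wt libraries, and the wt mean was 3.13 times the cko mean. The log2 fold change was -1.11 (standard error 0.31, 95% interval -1.87 to -0.34, adjusted p = 0.223 by limma), which missed the threshold of the results by its unadjusted p. With single libraries left out it ranged from -1.42 (without wt replicate 2) to -0.79 (without wt replicate 1). The ratio of Klrd1 to Gzma was 0.111, 0.107, 0.0833 and 0.101 in wt replicates 1 and 2 and cko replicates 1 and 2, a narrower range than that of either gene.

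Ncr1 encodes NKp46, an activating receptor found on NK cells, ILC1 and part of the ILC3. It had 1.84 and 1.38 FPKM in the wt and 0.173 and 1.03 FPKM in the cko libraries (63, 40, 5 and 28 reads). Both cko libraries lay below both wt libraries, and cko replicate 1 stood far below cko replicate 2. By counting error alone, 5 reads in cko replicate 1 gave a 95% interval of 0.0866 to 0.623 RPM, below that of each other library, whereas the interval of cko replicate 2 (1.05 to 2.29 RPM) overlapped those of both wt libraries. The log2 fold change was -0.75 (standard error 0.35, 95% interval -1.63 to 0.13, adjusted p = 0.353 by limma), and -0.36 without cko replicate 1. Without wt replicate 2 it was -0.88.

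Klrb1c encodes NK1.1, the surface antigen by which NK cells are recognised in C57BL/6 mice. It had 0.380 and 0.879 FPKM in the wt and 0.216 and 0.115 FPKM in the cko libraries, from 25, 49, 12 and 6 reads. Both cko libraries lay below both wt libraries, and the wt mean was 3.81 times the cko mean, but the gene was under the filter and was not tested. The 95% intervals were 0.728 to 1.66 RPM in wt replicate 1 and 0.331 to 1.12 RPM in cko replicate 1, which overlapped. Klrb1c shares sequence with neighbouring Klrb1 genes and overlaps Gm44511 on the same strand, and how reads in shared sequence were counted is not given in the sources used here.

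Il2rb encodes the receptor chain (CD122) through which NK cells receive IL-15 and IL-2. It had 1.10 and 0.954 FPKM in the wt and 0.575 and 1.12 FPKM in the cko libraries, from 68, 50, 30 and 55 reads. The groups overlapped, with cko replicate 2 above both wt libraries and cko replicate 1 below them. Its mean of 0.936 FPKM was just under the filter, and it was not tested with all libraries in. The difference of its log2(FPKM + 1) means, cko minus wt, was -0.15, and it was 0.063 without cko replicate 1.

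**Figure D2:**
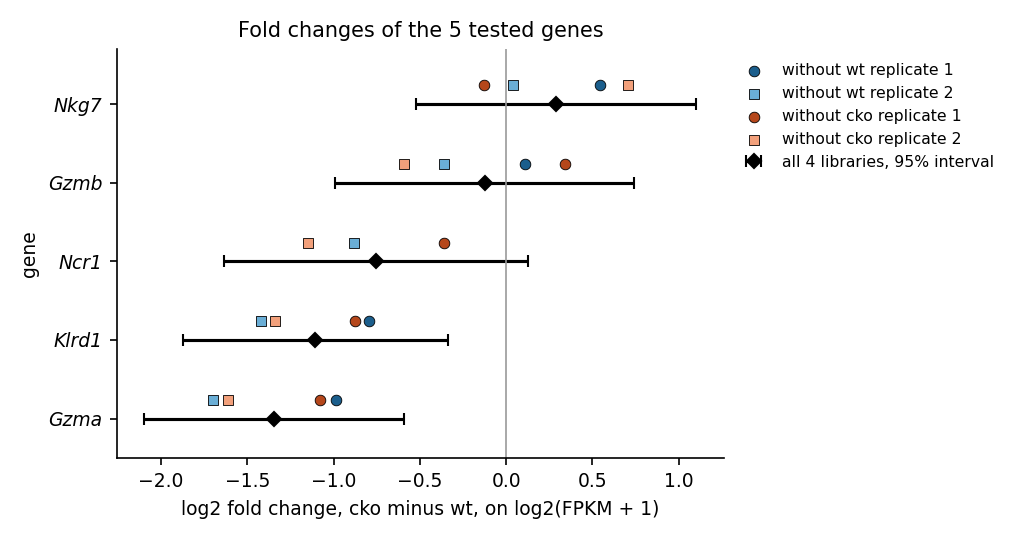
Log2 fold change of the 5 tested genes (cko minus wt, on log2(FPKM + 1)), with black diamonds and bars for all 4 libraries and their 95% interval from limma, and coloured points for the fits that leave out 1 library each. Gzma (-1.70 to -0.99) and Klrd1 (-1.42 to -0.79) stay below 0 with any library left out. For both, each cko value lies below each wt value, so leaving out 1 library could not turn the sign. Gzmb (-0.59 to 0.34) and Nkg7 (-0.13 to 0.71) cross 0, and Ncr1 has no value without wt replicate 1 because its mean then falls under the filter.

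Summed over the 8 genes, the level was 78.8 and 50.5 FPKM in the wt and 39.8 and 42.4 FPKM in the cko libraries. The groups did not overlap, with means of 64.6 ± 20.0 and 41.1 ± 1.87 FPKM (SD, n = 2 each), and the difference between the wt libraries was larger than the gap from wt replicate 2 to either cko library. The ratio of the means, cko over wt, was 0.636, or -0.65 on the log2 scale, where it was -0.94 without wt replicate 2 and -0.30 without wt replicate 1. Gzma made up 55.9% and 52.4% of the sum in the wt and 26.4% and 36.9% in the cko libraries. Without Gzma the sums were 34.8 and 24.1 FPKM in the wt and 29.3 and 26.8 FPKM in the cko libraries, which overlapped, with a ratio of 0.953. As a gauge, the sum thus followed Gzma, and the remaining genes together gave no gap between the groups. Of their mean sums, 29.4 FPKM in the wt and 28.0 FPKM in the cko libraries, most was Nkg7 (13.2 and 16.8) and Gzmb (8.63 and 8.17). Klrd1, Ncr1 and Klrb1c, each lower in both cko libraries, weighed little in these sums, and Prf1 and Il2rb overlapped.

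**Figure D3:**
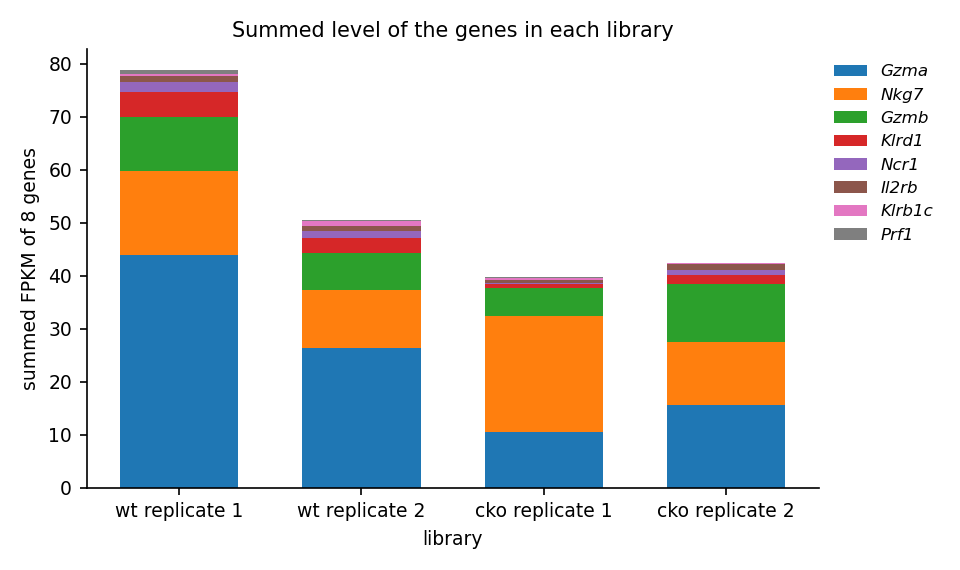
Summed FPKM of the 8 genes in each library, with a coloured segment for each gene. The bars reach 78.8, 50.5, 39.8 and 42.4 FPKM, and the Gzma segment at the base falls from 44.0 and 26.5 FPKM in the wt to 10.5 and 15.7 FPKM in the cko libraries while the segments above it sum to between 24.1 and 34.8 FPKM.

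Other genes of the NK cell programme were examined in lists chosen for their function. Of 30 genes of NK receptors and adhesion molecules, 23 had a value, 16 of these were under 1 FPKM in every library and 3 were tested, with 0 past the threshold and a median log2 fold change of 0.45. Their summed level was 14.7 and 10.8 FPKM in the wt and 12.1 and 14.3 FPKM in the cko libraries, and so overlapped. Klrk1, the gene of the activating receptor NKG2D, had 1.57 and 1.14 FPKM in the wt and 0.535 and 1.29 FPKM in the cko libraries. Cd244, a receptor gene that myeloid cells also use, had 1.99 and 2.41 FPKM in the wt and 3.63 and 4.17 FPKM in the cko libraries (log2 fold change 0.62, adjusted p = 0.252 by limma), and Klrb1f had 2.22 and 1.55 against 2.24 and 3.71 FPKM. Of the 8 genes above 4 lay lower and 0 higher in both cko libraries. Of the 23 genes with a value in this list 4 lay lower and 4 higher, beside 12.6% and 24.5% of all genes. One of the 4 lower genes, singled out after its values were seen, was Cd226, the gene of the activating receptor DNAM-1, with 63 and 33 reads in the wt and 2 and 3 reads in the cko libraries.

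The most abundant genes of the machinery that NK cells share with myeloid cells lay far above the NK genes in level. Of 13 signalling adaptors, 12 had a value and 8 were tested, with 0 past the threshold and a median of 0.34. Of the 12, 4 were under 1 FPKM in every library. In order, 4 of the 12 lay higher and 1 lower in both cko libraries, beside 24.5% and 12.6% of all genes. Tyrobp (DAP12), the adaptor of activating receptors, had 195 and 140 FPKM in the wt and 115 and 152 FPKM in the cko libraries, and Fcer1g, the common Fc receptor chain, 115 and 297 against 348 and 157 FPKM. Vav1 lay higher in both cko libraries, at 78.4 and 85.4 against 115 and 107 FPKM (log2 fold change 0.43, adjusted p = 0.250 by limma). Of 20 genes of further granule content, release and death ligands, 15 had a value and 9 were tested, with 0 past the threshold and a median of 0.12 (-0.00055 with median-of-ratios rescaling). Of the 15, 5 were under 1 FPKM in every library. In order, 5 of the 15 lay higher and 0 lower in both cko libraries, beside 24.5% and 12.6% of all genes. Srgn, the granule proteoglycan serglycin, had 144 and 104 FPKM in the wt and 182 and 460 FPKM in the cko libraries (log2 fold change 1.23, adjusted p = 0.271 by limma). Ctsc, cathepsin C, which activates granzymes and the serine proteases of neutrophils and mast cells alike, had 88.0 and 67.2 against 125 and 240 FPKM (1.16, adjusted p = 0.228 by limma). Srgn and Ctsc thus lay higher in both cko libraries, in the direction opposite to Gzma, and Rab27a, which serves granule docking, overlapped at 107 and 127 against 138 and 116 FPKM.

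Of 11 transcription factors of NK cells and ILC1, 11 had a value and 5 were tested, with 1 higher and 0 lower past the threshold and a median of 0.15. Of the 11, 5 lay higher and 0 lower in both cko libraries, beside 24.5% and 12.6% of all genes. Among these 5, singled out after its values were seen, was Tbx21, the gene of the T-box factor T-bet, with 13 and 0 reads in the wt and 29 and 21 reads in the cko libraries. The gene that rose was Nfil3, needed for NK cell development and also induced in myeloid cells, with 31.8 and 42.1 FPKM in the wt and 79.7 and 86.6 FPKM in the cko libraries (log2 fold change 1.16, standard error 0.18, adjusted p = 0.183 by limma). Id2 overlapped at 218 and 188 against 170 and 261 FPKM, and Ets1 at 26.6 and 27.7 against 37.2 and 24.6 FPKM. Of 13 genes of the IL-2, IL-15, IL-12 and IL-18 receptor axis, 13 had a value and 10 were tested, with 0 past the threshold, a median of 0.28, and, of the 10, 6 higher and 1 lower in both cko libraries, beside 33.6% and 18% of all tested genes. Jak3, the kinase of the common cytokine receptor chain, had 12.8 and 10.2 FPKM in the wt and 21.1 and 21.8 FPKM in the cko libraries (log2 fold change 0.86, adjusted p = 0.199 by limma). Il18rap, a chain of the IL-18 receptor, had 59.8 and 61.3 against 71.9 and 82.0 FPKM and Jak1 47.1 and 49.8 against 58.4 and 64.2 FPKM, so that these 3 lay above Il2rb in level and higher in both cko libraries. The 1 tested gene lower in both, singled out after its values were seen, was Il15. It had 6.69 and 7.14 FPKM in the wt and 3.1 and 3.6 FPKM in the cko libraries (log2 fold change -0.86, adjusted p = 0.202 by limma). Of 10 genes of ILC2 and ILC3, 7 had a value and 2 were tested. Of the 7, 2 lay higher and 0 lower in both cko libraries, beside 24.5% and 12.6% of all genes. Areg, a growth factor gene, rose from 0.482 and 0 FPKM to 2.90 and 3.91 FPKM (log2 fold change 1.85, adjusted p = 0.183 by limma). It reached the filter only through the cko libraries (mean 3.40 FPKM, against 0.241 FPKM in the wt libraries). The other tested gene, Il7r, overlapped at 0.393 and 2.10 against 0.333 and 1.20 FPKM (log2 fold change -0.28).

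Markers of other cell types were set beside these values. T cells share Gzma, Gzmb, Prf1, Nkg7 and Klrd1 with NK cells, and of 17 T cell genes 15 had a value and 5 were tested. All 5 tested lay lower in both cko libraries, beside 18% of all tested genes, whereas of the 15 with a value 6 lay lower, 1 higher and 8 overlapped. Lck, singled out after its values were seen, reached the filter only through the wt libraries. Its mean was 1.43 FPKM in the wt and 0.572 FPKM in the cko libraries, so that being tested and lying lower are linked for it. Cd3d, a chain of the T cell receptor complex, had 6.50 and 7.55 FPKM in the wt and 4.62 and 3.15 FPKM in the cko libraries. Of the 5, 1 gene, Trbc2, passed the threshold, with 5.33 and 5.14 FPKM in the wt and 1.70 and 2.21 FPKM in the cko libraries (log2 fold change -1.09, standard error 0.20, adjusted p = 0.198 by limma). The list had a median of -0.63 and summed to 16.9 and 18.7 FPKM in the wt and 10.2 and 10.2 FPKM in the cko libraries, with Cd3e listed at 0 in 3 libraries and Trac in 3 (both singled out after their values were seen). Of 9 B cell genes, 9 had a value and 8 were tested, with 7 lower in both cko libraries beside 18% of all tested genes, 0 past the threshold, a median of -0.51, and sums of 101 and 119 FPKM in the wt and 67.0 and 81.3 FPKM in the cko libraries. The sums of both lists lay lower in both cko libraries, as Gzma, Klrd1, Ncr1 and Klrb1c did, although wt replicate 1, the highest library for 3 of these 4, was the lower wt library for both sums. The part of T cell RNA in the levels of the shared genes was not tested.

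Basophils and mast cells also make granule serine proteases, and the genes of 2 of these, Prss34 and Mcpt8, overlapped between the groups. Prss34 had 60.4 and 14.7 FPKM in the wt and 20.0 and 38.9 FPKM in the cko libraries, and Mcpt8 24.4 and 9.48 against 7.0 and 17.2 FPKM. Wt replicate 1 and cko replicate 2 were thus the highest libraries of their groups for both, as they were for Gzmb, whereas for Gzma wt replicate 1 and cko replicate 2 were highest in their groups with no overlap between the groups. This order was not particular to genes of basophils and mast cells. Il2rb (1.10 and 1.12 FPKM) and Klrk1 (1.57 and 1.29 FPKM) also had these libraries above both others. Klrd1 and Ncr1 were highest in them within their groups, whereas Nkg7, Prf1 and Klrb1c had cko replicate 1 above cko replicate 2. The ratio of Gzmb to Mcpt8 was 0.418, 0.746, 0.759 and 0.642 in wt replicates 1 and 2 and cko replicates 1 and 2, and that of Gzmb to Prss34 was 0.169, 0.481, 0.266 and 0.284. Of the 9 basophil and mast cell genes 6 were tested, with 0 past the threshold, a median of 0.24, and sums of 177 and 95.5 FPKM in the wt and 142 and 270 FPKM in the cko libraries, in part through Hdc (67.9 and 65.1 against 104 and 193 FPKM). The part of basophil RNA in the Gzmb level was not tested.

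**Figure D4:**
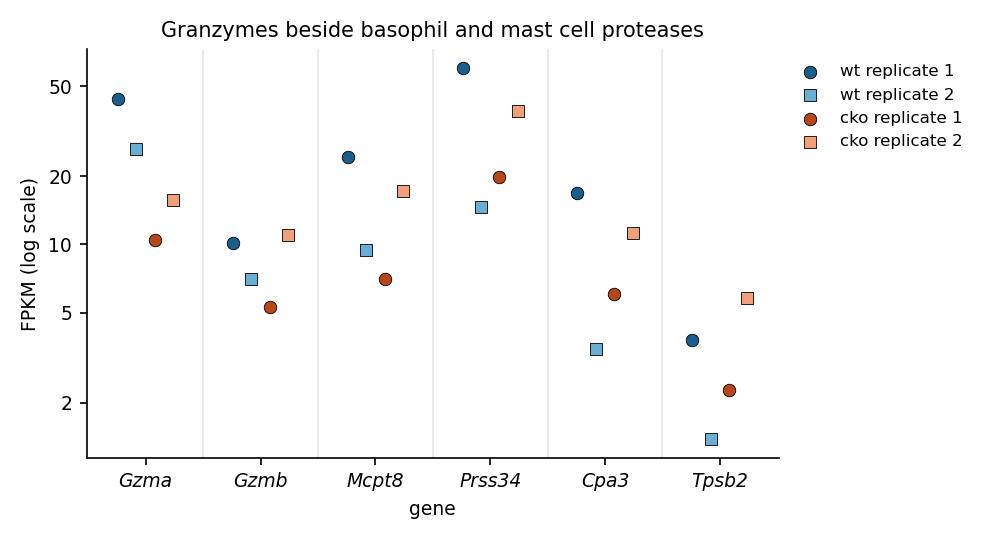
FPKM (log scale) of both granzyme genes and of 4 protease genes of basophils and mast cells, 1 point per library; Cpa3 and Tpsb2 were added to the plot after their values were seen. The Gzmb points follow the order of wt replicate 1 and cko replicate 2 above the other libraries that all 4 protease genes show, as at 24.4 and 17.2 against 9.48 and 7.0 FPKM for Mcpt8, and the Gzma points are set apart by group. The NK genes Il2rb and Klrk1, not plotted, show the same order as Gzmb.

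Of the remaining lists, plasmacytoid dendritic cell genes (7 of 7 with a value, 4 tested) had a median of -0.23 with 0 past the threshold and overlapping sums of 39.1 and 45.9 against 31.4 and 41.9 FPKM. Myeloid genes (14 of 14 tested) had a median of 0.14, with Lyz2 (31306 and 32147 against 10422 and 8127 FPKM) and S100a8 (32243 and 21503 against 13010 and 12062 FPKM) lower past the threshold. Of the 14, 6 lay lower and 4 higher in both cko libraries, beside 18% and 33.6% of all tested genes, and their sum was mostly Lyz2, S100a8 and S100a9. Lyz2 is the locus from which the Cre of the cko animals is expressed, and the part of this in its level was not tested. Erythroid genes (5 of 5 tested) had a median of -0.97, with Hbb-bs and Epb42 lower past the threshold, and sums of 3215 and 2184 FPKM in the wt and 1300 and 1387 FPKM in the cko libraries. Hepatocyte genes (5 with a value, 4 tested) had a median of -0.53, with Apoa1 lower past the threshold, and sums of 51.0 and 83.0 against 30.0 and 38.1 FPKM. Erythroid and hepatocyte RNA thus lay lower in both cko libraries together with Gzma, and the erythroid sums ordered the 4 libraries as the sums of the NK and cytotoxic genes did. The part of these cells in the summed NK gene level was not tested.

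**Figure D5:**
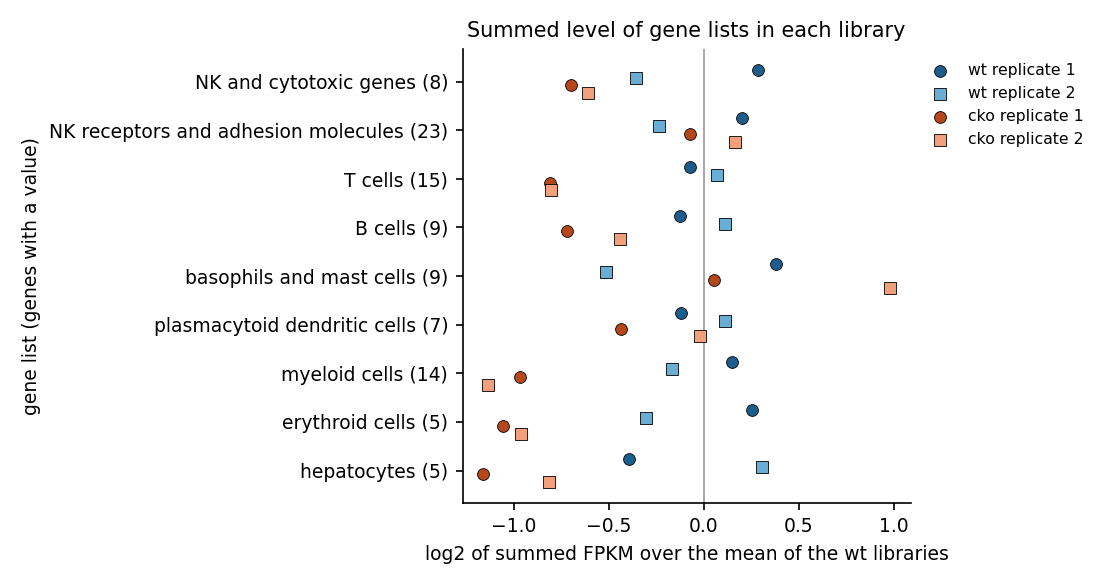
Summed FPKM of 9 gene lists in each library, as log2 of the ratio to the mean of the wt libraries, with the number of genes with a value in brackets and a line at 0. The NK and cytotoxic genes have both cko libraries below both wt libraries, as the T cell, B cell, myeloid, erythroid and hepatocyte lists do, whereas the further NK receptors, the basophil and mast cell list and the plasmacytoid dendritic cell list overlap. The myeloid sum is mostly Lyz2, S100a8 and S100a9, and the median log2 fold change of the 14 myeloid genes is 0.14. Not plotted are the lists of signalling adaptors, further granule genes, transcription factors, the receptor axis, and ILC2 and ILC3. The adaptor sums overlap, and in each other list not plotted both cko libraries lie above both wt libraries. For the further granule genes the cko libraries lie at 0.42 and 0.96, against 0.015 and -0.016 in the wt libraries.

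The 5 tested genes whose pattern over the 4 libraries was most like the mean pattern of the 5 tested cytotoxic and NK genes were Fam46c, Ndufc2, Rps27l, Cox7a2 and Ifi27. Likeness was the Euclidean distance between patterns of log2(FPKM + 1), each centred on its own mean. These distances were 0.0747 to 0.0961, where the median of all tested genes was 0.926. The cytotoxic and NK genes themselves lay at 0.373 (Ncr1), 0.508 (Klrd1), 0.621 (Gzmb), 0.758 (Gzma) and 1.24 (Nkg7) from their own mean, so that Nkg7 was farther from it than the median gene. Fam46c, for example, had 19.8 and 14.3 FPKM in the wt and 9.73 and 12.4 FPKM in the cko libraries.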

How the data were processed

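RNA-seq libraries of mouse cells labelled as myeloid, 2 labelled wt and 2 labelled cko, were grouped by these labels. The authors sequenced on an Illumina platform, and their processing notes name TopHat2 2.0.12, Bowtie2 2.2.3 and HTSeq 0.6.0 and the build mm9, whereas 92.61% of the gene positions in the files are identical to GENCODE M21 (GRCm38), which was used here. Counting settings, strand included, are not given in the sources used here. The authors deposited 1 FPKM value per gene and library for 24706 genes, with no scaling between libraries. Values of single-exon genes were whole multiples of 1 read in 99.97% to 100% of those tested (within 0.01 of a whole number), which gave totals of 17691505 to 22212407 reads and the reads of 99.26% of genes. Reads of Il2rb came from a gene length solved from its 4 values. RPM intervals are exact (Clopper-Pearson) at 95% and reflect counting error alone.

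Groups were compared on log2(FPKM + 1) by limma 3.58.1 under R 4.3.3, with lmFit followed by eBayes (trend on), for genes whose mean reached 1 FPKM, with Benjamini-Hochberg adjustment over all 10779 of them and no covariates. Both thresholds of the study were applied. The 9 genes and the 13 lists beside them were chosen with earlier results of these data known. Named from the lists were genes among the 3 with the highest mean FPKM and genes past |log2FC| above 1 with an unadjusted p under 0.01, with exceptions stated as chosen after their values were seen, Pdcd1 as the targeted gene, and the 5 genes most like the tested ones. Itgam, which encodes CD11b, and the Y-linked genes with Xist were named as checks. Promoters came from RefSeq (GRCm38.p6). The fit was tested on simulated data. Alternatives were pseudocount 0.1, no filter, a filter at a mean of 0.1 FPKM, rescaling by median of ratios, a block for the replicate number, voom on the recovered reads (mean of 10 or more), each library left out in turn and, for the sum, removal of Gzma. Tables and figures were made with Python 3.11.15, numpy 2.4.6, pandas 2.3.3, scipy 1.17.1 and matplotlib 3.10.9.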

Additional observations from a re-analysis of the deposited data

How the results depend on the processing

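With 2 libraries per group, fold changes of genes with few reads were the least precise. The median log2 fold change of the tested genes, -0.75, was -1.40 with pseudocount 0.1 and, with all 8 genes in, -1.32 with voom and -0.37 with no filter or a filter at 0.1 FPKM, and ranged from -1.15 to -0.24 with 1 library left out (-0.24 without cko replicate 1). The 1 gene past the threshold, Gzma, was lost with no filter, with the replicate block and without wt replicate 1 or cko replicate 1, so that the count ranged from 0 to 1 with 1 library left out. For Gzma and Klrd1 both cko values lay below both wt values, so leaving out 1 library or changing pseudocount could not turn the sign. Filters and replicate blocks left their fold changes as they were. Gzma kept its direction in 11 of 11 alternatives (-1.70 to -0.99), as did Klrd1 (-1.67 to -0.79). Their limma adjusted p ranged from 0.184 to 0.612 and from 0.224 to 0.612, apart from 0.0752 and 0.115 with the crossed numbers described below, a pairing chosen after seeing the data. Gzma had the largest fold change of the tested genes on log2(FPKM + 1), but with pseudocount 0.1 and with voom those of Ncr1 (-1.61 and -1.90) and Klrd1 (-1.57 and -1.67) were larger than that of Gzma (-1.40 and -1.43). With 1 library left out, Gzmb ranged from -0.59 to 0.34 and turned its sign without wt replicate 1 (0.11) and without cko replicate 1 (0.34), and Nkg7 ranged from -0.13 (without cko replicate 1) to 0.71. The log2 ratio of the summed level, -0.65, was -0.070 without Gzma and ranged from -0.94 to -0.30 with 1 library left out (-0.30 without wt replicate 1). The count of genes lower in both cko libraries, 4, ranged from 4 to 6 with 1 library left out, where fewer libraries must be ordered.

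Over all genes, 247 passed the threshold of the results, and 136 (without cko replicate 2) to 472 (without cko replicate 1) with 1 library left out, with 151 without wt replicate 1; the count for the threshold of the methods, 0, was 2 with voom. The cause of these shifts was not tested. The replicate numbers are not stated to pair the samples (correlation of the replicate differences -0.16). With the replicate block 258 genes, of them 0 of the tested cytotoxic and NK genes, passed the threshold of the results. A pairing with crossed numbers, chosen after seeing the data, gave 363 genes and 2 of the cytotoxic and NK genes, and 1 gene for the threshold of the methods. The count of genes lower in both cko libraries under the alternatives was also chosen after seeing the data.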
